A study of Drosophila melanogaster with 3 samples.

Results

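Divergent protein-coding promoters are places where 2 protein-coding genes on opposite strands start close together and are transcribed away from each other. The peaks described here were the summits of the authors' optimal list that lay within 500 bp of a transcription start site (TSS) taking part in such a head-to-head pair, with at most 500 bp between the paired start sites. This rule used only positions, and it gave 719 summits of 6221 in the list (11.6%). They made up 27.6% of the 2604 summits within 500 bp of any protein-coding TSS (95% exact Clopper-Pearson interval, 25.9 to 29.4%), and the other 1885 of these were used for comparison.

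Binding of the B subunit of NF-Y was profiled by chromatin immunoprecipitation with sequencing in whole Drosophila melanogaster embryos of 0 to 24 h, with males and females pooled. All samples came from 1 transgenic line with Nf-YB fused at its C-terminal end to green fluorescent protein (GFP), and chromatin was precipitated through the GFP. There were 3 biological replicates, which form 1 group, and no other genotype, treatment or age was analysed here. Whole embryos of this age range mix all cell types and most of embryogenesis, so a summit in this list cannot be assigned to a cell type or stage.

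NF-Y is a trimer of the subunits A, B and C. The B and C subunits form a dimer through histone folds, and the A subunit recognises the CCAAT box, a pentamer that in many animal promoters lies a short way upstream of the start site. Head-to-head pairs are common in the compact fly genome, are rich in housekeeping genes, and often carry the DNA replication-related element (DRE) or sites of the insulator protein BEAF-32. A divergent pair places both promoters, and any CCAAT box of either gene, on a single short stretch of DNA.

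To show the DNA under these peaks, sequences from the RefSeq copy of dm6 are given 5′ to 3′ on the plus strand. None of the printed stretches overlaps an annotated exon, and each lies between 2 start sites. The first set shows, for 2 of the strongest summits, the whole interval between the 2 start sites, one interval with and one without a CCAAT box, with CCAAT (or ATTGG, its reverse complement) in capitals. The Chro and Ssl1 interval is chr3L:22878985-22879088, and the crq and shv interval is chr2L:453025-453107.
Chro/Ssl1: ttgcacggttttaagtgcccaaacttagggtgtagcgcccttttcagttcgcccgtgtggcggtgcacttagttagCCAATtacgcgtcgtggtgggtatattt
crq/shv: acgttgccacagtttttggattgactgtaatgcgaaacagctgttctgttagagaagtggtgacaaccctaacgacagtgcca
The CCAAT box of Chro and Ssl1 lay 41 bp from the summit, which itself was 15 bp beyond the Ssl1 end of the interval, and the crq and shv interval held none. The window of 50 bp to both sides of the crq and shv summit did hold a CCAAT box, outside this interval.

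The second set was picked after values were seen, as the highest-signal summits between start sites and found in all 3 replicates that had a CCAAT box and a window wholly between the start sites and clear of annotated exons. Each is the window reaching 50 bp to both sides of the summit, again with CCAAT or ATTGG in capitals. The windows are chrX:4647478-4647578 for HLH4C and mRpL30, chr3L:8646955-8647055 for CG13305 and Pex7, chr3R:24109132-24109232 for eIF4EHP and CG18428, chr3R:27636125-27636225 for CG5611 and Mtl, and chr3L:9457760-9457860 for CG3437 and CG3552.
HLH4C/mRpL30: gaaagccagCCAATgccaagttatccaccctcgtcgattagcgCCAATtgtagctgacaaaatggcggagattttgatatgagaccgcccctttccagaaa
CG13305/Pex7: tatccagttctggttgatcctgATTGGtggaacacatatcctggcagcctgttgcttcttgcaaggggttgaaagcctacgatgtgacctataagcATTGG
eIF4EHP/CG18428: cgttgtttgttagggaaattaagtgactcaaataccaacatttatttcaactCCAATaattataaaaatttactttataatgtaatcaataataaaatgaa
CG5611/Mtl: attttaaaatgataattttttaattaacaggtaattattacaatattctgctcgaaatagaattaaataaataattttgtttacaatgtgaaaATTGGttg
CG3437/CG3552: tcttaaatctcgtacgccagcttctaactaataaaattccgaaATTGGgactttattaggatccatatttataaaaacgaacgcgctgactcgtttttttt
The windows of HLH4C and of CG13305 held 2 copies each, and the other windows 1 copy each. Their base composition varied widely, with a GC content of 48.5% at HLH4C against 17.8% at CG5611.

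The third set, also picked after values were seen, shows the 3 highest-signal summits under the same conditions with neither a CCAAT box nor a DRE. All 3 were rich in A and T, whereas Gad1 and CG14989, also without both motifs and with higher signal, had 49.5% GC and are not shown because their window overlaps an exon. These windows are chr3R:15229487-15229587 for Art3 and mRpS10, chr2L:13835406-13835506 for mRpS23 and CenG1A, and chr2L:8376840-8376940 for CG13390 and CG17294.
Art3/mRpS10: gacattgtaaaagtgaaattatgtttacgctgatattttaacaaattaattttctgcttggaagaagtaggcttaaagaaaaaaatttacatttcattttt
mRpS23/CenG1A: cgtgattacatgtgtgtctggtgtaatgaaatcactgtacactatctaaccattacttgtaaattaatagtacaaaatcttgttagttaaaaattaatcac
CG13390/CG17294: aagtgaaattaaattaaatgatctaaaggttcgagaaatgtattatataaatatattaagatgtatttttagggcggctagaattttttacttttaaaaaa
Their GC content was 23.8% at Art3, 28.7% at mRpS23 and 20.8% at CG13390.

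The last set shows the DRE, TATCGATA, in capitals at 2 ribosomal protein genes, again picked after values were seen. The windows are chr3R:11216319-11216419 for RpS25 and CG4820 and chr3L:3222982-3223082 for RpL28 and eIF1.
RpS25/CG4820: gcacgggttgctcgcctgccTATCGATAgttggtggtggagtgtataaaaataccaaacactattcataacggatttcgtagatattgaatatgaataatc
RpL28/eIF1: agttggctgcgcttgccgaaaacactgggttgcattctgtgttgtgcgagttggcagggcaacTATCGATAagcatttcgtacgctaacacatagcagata
Neither window held a CCAAT box.

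The lists carry no read counts, so the depth is unknown. The signal value of a peak is the authors' own score, and it is given as a multiple of the median signal of its list or as a rank within the list. For replicates, the 6221 peaks with the highest signal were taken from each list of 30000, so that all lists had equal length. These gave 701 summits at divergent promoters in replicate 1, 630 in replicate 2 and 776 in replicate 3 (702 ± 73.0, SD, n = 3). Replicate 3 held the most and replicate 2 the fewest. Comparisons were tested over replicates by an exact two-sided sign-flip permutation test, whose smallest possible p with 3 replicates is 0.25, so no comparison could pass 0.05. Peaks and genes are not replicates, and the intervals on shares cover counting only.

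With a summit counted for each gene in reach, genes of head-to-head pairs had one more often than other protein-coding genes in all 3 replicates. The annotation held 1995 pairs with 3815 genes of 13945, or 27.4%. In the optimal list, 1422 genes in pairs had a summit within 500 bp of a TSS (37.3%, 35.7 to 38.8%), against 1595 of the 10130 other genes (15.7%, 15.0 to 16.5%), where 21.6% of all protein-coding genes had one. The shares were 35.9, 31.4 and 39.9% in replicates 1, 2 and 3 for genes in pairs, against 15.6, 14.3 and 16.1% for other genes. The groups did not overlap, and the difference was 20.4 ± 3.40 percentage points (SD, n = 3, exact sign-flip p = 0.25). It was 9.30 over replicates with pairs up to 200 bp apart, and 30.7 with whole replicate lists.

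A single summit between 2 close start sites counts for both genes, which raises the share per gene in pairs. Of the 722 pairs with a summit, 699 (96.8%) had one within 500 bp of the closest start site of each gene, not necessarily the same summit. Any summit between start sites at most 500 bp apart meets this, so the share follows largely from the rule. Counted per length of promoter window instead, an alternative chosen after seeing the data, there were 299.6 summits per Mb in the windows of paired start sites against 145.75 per Mb in the other promoter windows. Over replicates these were 293 ± 30.4 per Mb in paired windows and 147 ± 2.94 per Mb in the others (SD, n = 3, exact sign-flip p = 0.25). A window of paired start sites holds the promoters of at least 2 genes, so the higher density does not show more summits per promoter. Set against genes, 719 summits stood beside 3815 genes in pairs and 1885 summits beside 10130 other genes. Divergent summits were thus 27.6% of promoter summits, and genes in pairs 27.4% of genes. Summits per gene were therefore about equal in both classes. Among genes with 1 annotated TSS position, also compared after seeing the data, 32.6% of those in pairs and 10.5% of the others had a summit. Among genes with 2 or more positions the shares were 47.6% in pairs and 31.6% in the others. In these shares too, a summit within reach of both genes of a pair counts for both.

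Per pair, 722 of 1995 had a summit (36.2%, 34.1 to 38.3%), with 34.8, 30.6 and 38.6% in replicates 1, 2 and 3 (34.7 ± 3.99%, SD, n = 3). When each summit was assigned to its closest pair, 614 pairs had 1 summit, 51 had 2 and 1 had 3, so a second separate summit was uncommon. Across the large arms, the share of pairs with a summit was 28.0% on X (81 of 289), 34.5% on 2R (130 of 377), 34.8% on 2L (135 of 388), 39.9% on 3R (216 of 542) and 40.8% on 3L (160 of 392). X had the lowest share of these arms in the optimal list, and this was not tested.

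The share of pairs with a summit varied with the distance between the closest start sites, and was highest above 200 and up to 400 bp. It was 27.4% of 430 pairs up to 100 bp apart and 28.7% of 356 pairs over 100 and up to 200 bp apart. In the next bins, each 100 bp wide, it was 44.1% of 542 pairs up to 300 bp, 45.25% of 400 pairs up to 400 bp and 30.7% of 267 pairs up to 500 bp. Over replicates the means along the same bins were 27.5 ± 0.94, 27.4 ± 3.08, 40.7 ± 5.09, 43.8 ± 6.39 and 30.1 ± 6.24% (SD, n = 3 each). The SDs of both middle bins overlapped each other, as did those of the 2 narrowest bins. The SD of the widest bin overlapped those of the 2 narrowest bins and of the bin up to 300 bp. It did not overlap that of the bin up to 400 bp.

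Pairs spaced over 200 and up to 400 bp, a range chosen after seeing these values, had a summit in 41.8, 36.6 and 47.6% of cases in replicates 1, 2 and 3, against 28.6, 25.3 and 30.6% for all other spacings. The difference was 13.9 ± 2.86 percentage points and had 1 direction in all 3 replicates (SD, n = 3, exact sign-flip p = 0.25). A wider pair also covers more DNA, so the count was repeated, after seeing the data, with a fixed window of 150 bp to either side of the midpoint. The shares were then 20.9, 26.1, 40.6, 39.25 and 22.8% from the narrowest to the widest bin. Pairs over 200 and up to 400 bp reached 40.02% and the rest 23.2% in this window, and the replicate means were 36.1 ± 7.12% and 21.9 ± 2.41% (SD, n = 3, exact sign-flip p = 0.25).

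**Figure D1:**
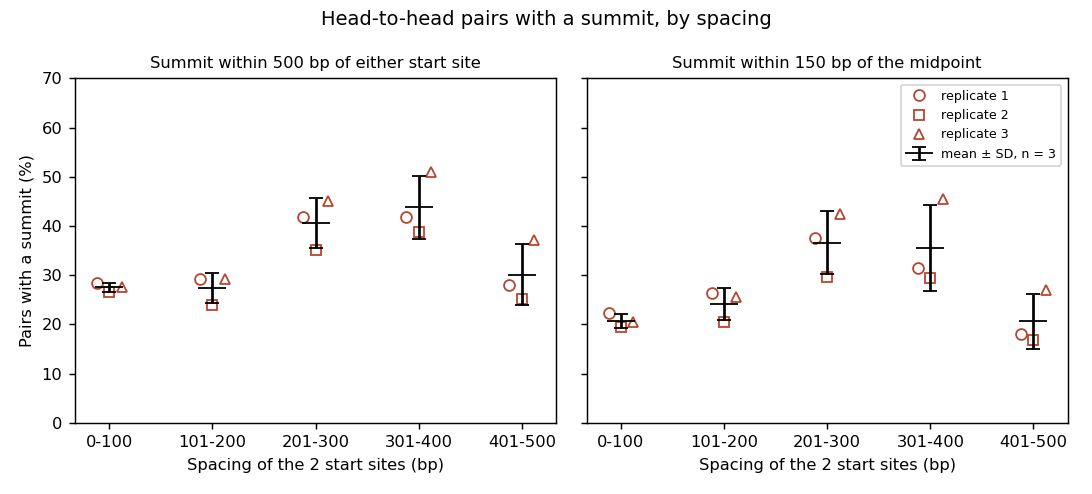
Share of head-to-head pairs with a summit (vertical axis, percent) by the spacing of the 2 closest start sites (horizontal axis, bp), for a summit within 500 bp of either start site (left) and within 150 bp of the midpoint (right). Points are the 3 replicates and bars the mean ± SD. In both panels the bins up to 300 and up to 400 bp have the highest means, 40.7 and 43.8% in the left panel.

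Most summits lay between the start sites rather than beyond them. With each pair placed by its closest start sites, 510 of 719 summits were between them (70.9%, 67.5 to 74.2%), and the shares were 67.2, 61.0 and 71.8% in replicates 1, 2 and 3 (66.6 ± 5.43%, SD, n = 3). Genes with several start sites can place a summit outside the closest sites and yet between 2 others of the pair. Counting these, 610 summits (84.8%) lay between some paired start sites, with 81.5, 73.3 and 85.4% in replicates 1, 2 and 3. Per length, there were 3.00 summits per kb between the closest start sites. All 209 summits outside them, some over 500 bp beyond, came to 0.314 per kb of the 500 bp to both sides, a ratio of 9.54. The ratio was 8.24, 6.25 and 9.70 in replicates 1, 2 and 3, lowest in replicate 2. The rule itself favours the interval, which is within reach of both start sites. A summit enclosed by a pair was also assigned to that pair before any other. These densities are therefore a description.

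Summits between the start sites gathered at the middle of the interval. The 510 summits between start sites lay a median of 40 bp from the midpoint and 94.5 bp from the nearer TSS. Of 433 such summits in pairs spaced 200 bp or more, 242 (55.9%) were in the third of the interval centred on the midpoint. This share was 49.9, 42.2 and 58.7% in replicates 1, 2 and 3. In pairs spaced 100 bp or less, 16.9% of the 124 summits fell between the start sites, against 87.6% of 234 summits at pairs over 200 and up to 300 bp apart.

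**Figure D2:**
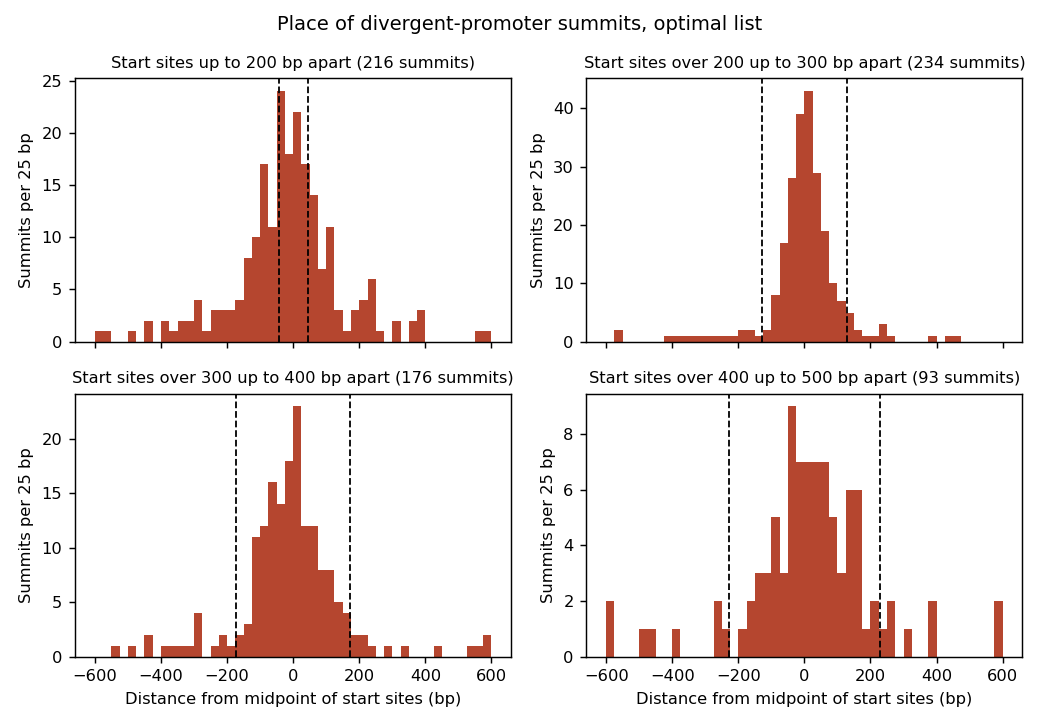
Number of divergent-promoter summits of the optimal list per 25 bp (vertical axes) by distance from the midpoint of the closest start sites (horizontal axes, bp, negative on the side of the gene on the minus strand, values beyond 600 bp placed in the end bins), in 4 classes of spacing. Dashed lines mark the median place of the start sites in each class. In the 3 classes over 200 bp, summits are densest near the midpoint and lie mostly between the dashed lines. In the narrowest class many lie outside the lines on both sides.

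Few summits lay at the distance limit of the rule, and more at its spacing limit. Only 5 summits lay over 450 and up to 500 bp from a paired start site, with a median of 1.55 times the list median signal, against 16 just outside, up to 550 bp, with 0.987 times. For spacing, 93 summits belonged to pairs spaced over 400 and up to 500 bp, with 0.962 times the list median, against 68 summits at pairs spaced over 500 and up to 600 bp, with 0.902 times.

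In lists of equal length, peaks at divergent promoters were rarely among the strongest. The median signal was 0.952 times the list median at divergent promoters and 1.05 times at other protein-coding promoters, a log2 ratio of -0.15. In replicates 1, 2 and 3 the log2 ratio was -0.23, -0.18 and -0.11 (-0.17 ± 0.058, SD, n = 3, exact sign-flip p = 0.25). This small difference in medians turned to 0.33 when the whole replicate lists were used. The gap was at the upper end: the 75th percentile was 1.48 times the list median at divergent promoters and 2.14 times at the others, and the 90th percentile 2.58 times and 7.35 times.

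By rank, 22 divergent summits (3.06%) and 238 other summits (12.6%) belonged to the 10% of promoter summits with the highest signal, which by construction hold 9.98% of all promoter summits. The divergent share was 2.85, 2.38 and 4.38% in replicates 1, 2 and 3, against 12.6, 12.6 and 12.3% for other promoters. The groups did not overlap, and the difference was -9.29 ± 1.23 percentage points (SD, n = 3, exact sign-flip p = 0.25). With whole replicate lists it was -1.18 percentage points and did not have 1 direction in all 3 replicates (exact sign-flip p = 0.50). In the whole list, 24 divergent summits stood among the first 622. The highest divergent signal was 50.02 times the list median, against 158 times at other promoters.

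**Figure D3:**
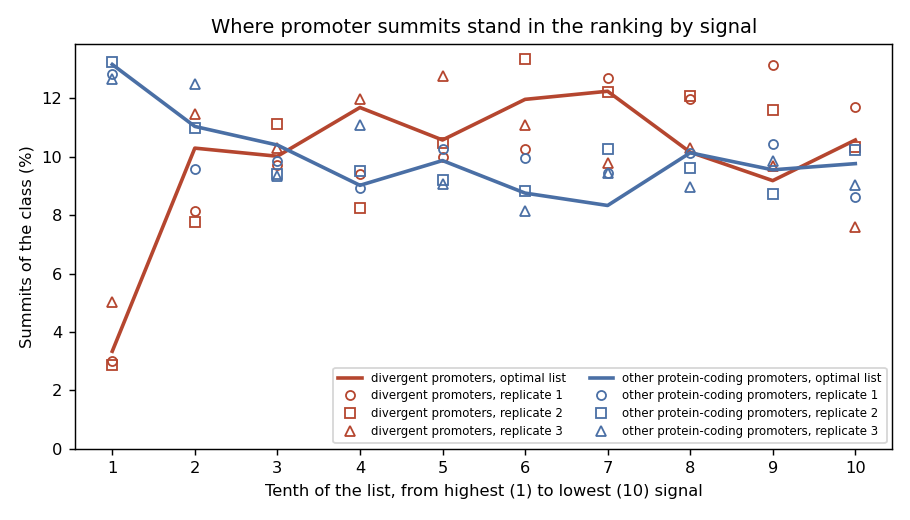
Share of the summits of a class (vertical axis, percent) in each of 10 equal parts of its list, from the highest signal at 1 to the lowest at 10 (horizontal axis), for divergent promoters and other protein-coding promoters. Lines give the optimal list and points the 3 replicates. The first of these holds 3.34% of divergent and 13.2% of other summits in the optimal list, and in the later ones the classes are much closer.

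Divergent summits were recovered in all replicates somewhat less often than other promoter summits. Of 719, 357 (49.7%, 45.9 to 53.4%) had a summit within 100 bp in all 3 replicates, against 1069 of 1885 others (56.7%, 54.4 to 59.0%), where 54.6% of the whole list did. Replicate by replicate, 77.3, 65.6 and 85.3% of divergent summits were found in replicates 1, 2 and 3, against 81.3, 74.9 and 81.6% of the others. The direction in replicate 3 was thus the opposite of that in the other replicates. Lower signal moved with lower recovery here, and its part in the result was not tested.

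The 20 divergent summits with the highest signal that were found in all 3 replicates spanned ranks 56 to 540 of the list, with signals of 5.48 to 50.02 times the median. All 20 ranked at 764 or better in every replicate. Of these 20, 12 lay between the closest start sites, 12 had a CCAAT box within 50 bp, 4 the GAGA element and 1 the DRE. They were chosen by signal and are described without a test.

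The strongest was shared by crq (FBgn0015924), which encodes a CD36-family scavenger receptor for the uptake of dying cells, and shv (FBgn0031256), a DnaJ-family chaperone. Their start sites on 2L were 84 bp apart, and the peak ran from 452557 to 453600 with its summit 16 bp upstream of shv. It ranked 67, 65 and 52 in replicates 1, 2 and 3, close together. The second, on 2R from 14269901 to 14271015, belonged to Sps1 (FBgn0261270), of the selenophosphate synthetase family, and conv (FBgn0261269), a leucine-rich repeat protein of tracheal tubes. It ranked 88, 69 and 57. Its summit lay 279 bp into Sps1 and not between the start sites.

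Next stood Chro (FBgn0044324), a protein of interband chromatin and the spindle matrix, and Ssl1 (FBgn0037202), a subunit of the general transcription factor TFIIH. Their start sites were 105 bp apart, and the peak on 3L from 22878397 to 22879592 had 35.4 times the median signal and ranks of 115, 116 and 67. These 3 stood clear of the rest, since the next pair, CG42637 and SREBP (FBgn0261283), the regulator of lipid synthesis genes, had 16.1 times the median. That summit lay 376 bp into SREBP. The pair after it, PIG-Wb and Gk2, a glycerol kinase, had its summit 554 bp beyond the closest Gk2 start site and 202 bp upstream of another Gk2 TSS.

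From the sixth on, most of the strongest summits sat in the interval between start sites. HLH4C (FBgn0011277), a basic helix-loop-helix factor, and mRpL30 (FBgn0029718), of the large mitochondrial ribosomal subunit, were 457 bp apart, with 10.4 times the median signal and ranks of 309, 306 and 405. Gad1, which makes the neurotransmitter GABA, and CG14989 had 9.28 times the median, with ranks of 387, 444 and 274. Art3, an arginine methyltransferase, and mRpS10, of the small mitochondrial subunit, were 257 bp apart with the summit 128 bp from mRpS10, 129 bp from Art3 and ranks of 432, 496 and 298. That summit was within 1 bp of the exact midpoint.

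eIF4EHP (FBgn0053100), a cap-binding repressor of translation, and CG18428 were 376 bp apart, with 6.36 times the median and ranks of 577, 631 and 346. mRpS23 and CenG1A, an Arf GTPase-activating protein, had the widest spacing of the 20, 492 bp, and ranks of 532, 665 and 373. CG5611 and Mtl were 352 bp apart with ranks of 570, 698 and 370. All 3 pairs stood higher in replicate 3 than in the other replicates.

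Peroxisome import was represented by Pex7, the receptor for one class of targeting signals, with CG13305 at 7.01 times the median and ranks of 413, 438 and 537. Aduk, a kinase related to Atg1, and pasi2, of septate junctions, had 6.96 times and ranks of 453, 442 and 460. Ythdc1, the nuclear reader of N6-methyladenosine in RNA, and CG12010 were 112 bp apart and carried the only DRE among the 20, with ranks of 553, 549 and 382. The narrowest spacing of the 20 was 39 bp, at CG11309 and CG7632, with ranks of 515, 561 and 349. The remaining pairs were Fbw5 and CG9147, Pdrg1 and Pal1, CG13390 and CG17294, Alp10 and Alp9, and CG1602 and PIG-G, at ranks 457 to 540.

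**Figure D4:**
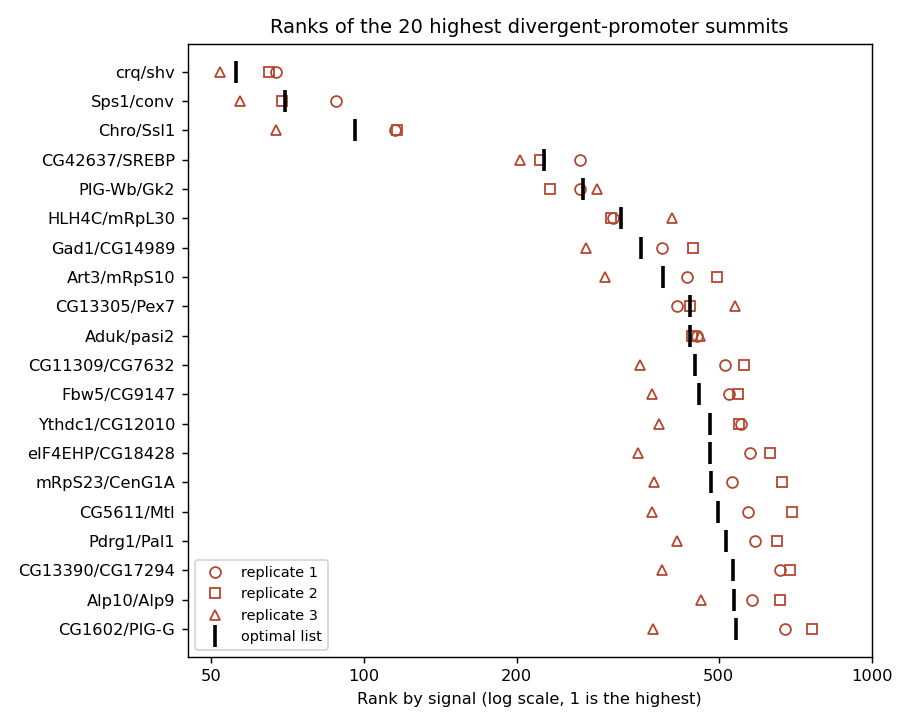
Rank by signal (horizontal axis, log scale, 1 is the highest) of the 20 highest divergent-promoter summits found in all 3 replicates (rows, named by both genes, highest at the top). Open symbols are replicates and the vertical tick the optimal list. The first 3 rows stand at ranks 52 to 116 and all other rows at 203 to 764.

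The 3 members with the lowest signal ranked 6202 to 6216 in the list, each at 0.57 times the median. They were CG9386 and BckdhA, a subunit of the branched-chain keto acid dehydrogenase, Vha44 and Hmgs, a vacuolar ATPase subunit with an enzyme of the mevalonate pathway, and endos and CG6650. The first was found in no replicate list cut to 6221 peaks, Vha44 and Hmgs only in replicate 2 at rank 3617, and endos and CG6650 only in replicate 1 at rank 4464.

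Functional lists were read by how many of their genes belonged to head-to-head pairs and how many of those had a summit, beside the 27.4% of all genes in pairs and the 37.3% of these with a summit. The lists were written by gene symbol with earlier results of these data known, and no list was tested. Genes of the cytosolic ribosome were the ones most often at a summit among lists of 10 or more genes in pairs: 37 of 93 were in pairs, and 32 of the 37 had a summit (86.5%), with 32, 31 and 31 in replicates 1, 2 and 3. Outside pairs, 40 of the other 56 genes of this list also had a summit, against 15.7% of all genes outside pairs. The high share was thus not particular to genes in pairs. RpL7 with Ripalpha ranked 972, and 948, 1310 and 1002 in replicates 1, 2 and 3, with start sites 30 bp apart and the summit 46 bp into RpL7.

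Mitochondrial ribosomal proteins differed from the cytosolic ones. Of 75 genes 54 (72.0%) were in pairs, the highest share among the lists, and 21 of the 54 had a summit (38.9%), with 18, 16 and 24 in replicates. Of 81 oxidative phosphorylation genes 37 were in pairs and 13 had a summit, led by ND-MWFE with TppII at rank 2129 and ND-51 with CG13994 at rank 2909. Both encode subunits of respiratory complex I, and both summits had a CCAAT box between the start sites. Of 33 aminoacyl-tRNA synthetases 21 were in pairs and 7 had a summit, led by IleRS with Hem at rank 1149 and SerRS with CG17260 at rank 1822. Translation factors had 9 of 22, led by eIF4EHP and by eIF1, the start codon selection factor, whose pair with RpL28 ranked 2220 and carried a DRE.

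Lists of nuclear machinery lay near or below the background of 37.3%. Mediator, TFIID and RNA polymerase II had 36 of 60 genes in pairs and 12 with a summit (33.3%; 11, 8 and 17 in replicates), led by Taf5, a TFIID scaffold subunit, with Pex6 at rank 1295, and MED30 with Rev1 at rank 1402. DNA replication and repair had 7 of 24 (29.2%), led by PolD2, of DNA polymerase delta, with CG13933 at rank 707, then XNP, a chromatin remodeler, with CG5116 at rank 2396. Cell cycle genes had 6 of 17 (35.3%), among them SAK, the kinase of centriole duplication, with Cdk12 at rank 1937, and Cdk1, the mitotic kinase, with mRpS7 at rank 2996. Splicing had 6 of 28 (21.4%), led by snRNP-U1-C with gukh at rank 2439 and Prp18 with CG6013 at rank 3461.

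Protein turnover and acidification lists had few bound members. The proteasome had 24 of 48 genes in pairs and 7 with a summit (29.2%), led by Rpn3 with l(2)37Bb at rank 2357 and Rpn13 with CtsL1 at rank 2751. The vacuolar ATPase had 3 of 13 (23.1%), led by Vha100-2 with Vti1b at rank 1108 and Vha55 with Snx3 at rank 3215. Heat shock genes and cytosolic chaperones had 4 of 10, among them Hsp83, the fly Hsp90, with CG14965 at rank 1178 and Hsc70-5, a mitochondrial chaperone, with CG8531 at rank 1278. Folding and stress genes of the endoplasmic reticulum had 5 of 6, and 5 in each replicate, led by shv and then by Hrd3, a component of the degradation ligase, with PTPMT1 at rank 692. Outside pairs, 8 of the 14 genes of this list had a summit, against 15.7% of all genes outside pairs.

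Chromatin lists had small numbers. Insulator, GAGA and DRE factors had 5 of 8 genes in pairs with a summit, led by Chro and by Cp190, an insulator cofactor, with CG4338 at rank 686 and ranks of 732, 858 and 581 in replicates. Polycomb and Trithorax group genes had 5 of 12, led by brm, the ATPase of the BAP remodelers, with Arl1 at rank 902, and E(z), the histone H3 lysine 27 methyltransferase, with Cnep1r2 at rank 1063. None of the 35 segmentation and Hox genes belonged to a head-to-head pair. Of these 35 genes, 33 had a promoter summit, against 15.7% of all genes outside pairs. The genes of NF-Y itself had none: Nf-YC was paired with xit at 97 bp and Nf-YB with CG10462 at 64 bp, and neither pair had a summit. Pairs with both genes in 1 list, namely Taf10b with Taf10, Hsp67Bc with Hsp22 and Ibf2 with Ibf1, also had none.

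The CCAAT box was found less often at divergent summits than at other promoter summits. CCAAT on either strand lay within 50 bp of 143 of 719 divergent summits (19.9%, 17.0 to 23.0%) and of 491 of 1885 others (26.0%, 24.1 to 28.1%), where 27.0% of all 6221 summits had it. The shares were 20.1, 20.5 and 17.9% in replicates 1, 2 and 3 at divergent promoters, against 25.2, 26.4 and 26.8% at the others. The groups did not overlap, and the difference was -6.64 ± 1.97 percentage points (SD, n = 3, exact sign-flip p = 0.25). With whole replicate lists it was -2.04. Around the point 100 bp upstream of each outermost start site, over all 13945 genes and at the same window size, the share was 19.3%. The longer form, CCAAT followed by C or G and then by A or G, contains the shorter one and stood at 5.84% of divergent summits and 10.6% of others, against 11.4% of all summits and 4.29% of promoters.

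Base composition moved with these shares. Mean GC content within 50 bp of the summit was 33.4% at divergent promoters and 40.4% at others, and in replicates 1, 2 and 3 it was 34.8, 36.3 and 32.3% against 42.1, 42.3 and 38.4%. The mean difference over replicates was -6.50 percentage points, and -1.90 with pairs up to 200 bp apart. The part of base composition in the motif differences was not tested. Between the closest start sites, the 510 summits had a mean GC of 31.9% and CCAAT at 18.0%, against 37.0% GC and CCAAT at 24.4% for the 209 summits outside them. Summits lying upstream of a start site at other promoters had 39.6% GC and CCAAT at 25.7%.

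CCAAT was most frequent among the strongest divergent summits, as at other promoters. With the divergent summits split into 5 equal groups by signal, it was at 27.1, 16.0, 19.4, 18.1 and 18.9% from the highest to the lowest group. The same groups of other promoter summits had 37.7, 24.9, 26.5, 21.2 and 19.9%. The lowest group thus differed by little between the classes and the highest by more. The groups were cut within each class and were not matched in signal. The highest group had a median of 2.58 times the list median at divergent promoters and 7.36 times at others. Its mean GC was 31.6 and 47.1%. The lowest group had 0.611 and 0.616 times the list median. At the 143 divergent summits with CCAAT, the nearest copy lay a median of 22 bp from the summit and 85 bp from the nearest TSS. Of the 143, 18 had 2 or more copies.

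Core promoter elements of housekeeping genes were more frequent at divergent summits than at other promoter summits. Among head-to-head pairs, compared at their midpoints below, the same elements were less frequent with a summit than without one over all pairs. The DRE (TATCGATA) was within 50 bp of 41 divergent summits (5.70%) and of 34 others (1.80%), against 1.22% of all summits and 2.62% of all promoters. The DRE shares were 4.99, 4.92 and 5.93% in replicates 1, 2 and 3 at divergent promoters, against 2.50, 1.34 and 1.55% at others. The core of the BEAF-32 site (CGATA), which is part of the DRE, was at 23.8% of divergent summits and 16.2% of others, against 14.0% of all summits and 20.4% of promoters. The core of Motif 1 (GGTCACAC), an element of ribosomal protein and other housekeeping promoters, was at 3.48% and 1.70%, against 0.964% of all summits and 1.39% of promoters. For all 3 motifs the divergent share was higher in every replicate (exact sign-flip p = 0.25 each, n = 3). The BEAF core difference was 7.55 percentage points in the optimal list, 16.4 with pairs up to 200 bp apart and 1.67 in the upper 50% of the list by signal.

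The GAGA element (GAGAG), a binding site of Trl (GAGA factor), differed the other way. It was at 63 divergent summits (8.76%) and 398 others (21.1%), against 18.0% of all summits and 13.4% of promoters. In replicates 1, 2 and 3 it was at 8.70, 10.3 and 8.25% of divergent summits and 22.7, 24.6 and 17.7% of others (exact sign-flip p = 0.25). In the highest of the 5 groups by signal, which were not matched in signal between the classes, it was at 10.4% of divergent summits and 36.6% of others. At the midpoints of head-to-head pairs, compared below, GAGAG was at 7.76% with a summit and 7.86% without one. Its low share was thus not particular to pairs with a summit. TATAAA was more frequent at divergent summits, with 25.9% against 17.6% at others, 17.9% of all summits and 18.2% of promoters. Among divergent summits it was at 29.0% between the closest start sites and 18.2% outside them. With pairs limited to 200 bp of spacing, the TATAAA difference turned to -4.53 percentage points.

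Smaller differences were seen for CAGCTG, at 6.12% of divergent summits and 4.67% of others (3.94% of all summits, 5.02% of promoters), and for CACGTG, at 0.834% and 1.22% (1.11% and 0.990%). Both kept 1 direction in the 3 replicates (exact sign-flip p = 0.25), but each turned under other settings. The Zelda site CAGGTA was at 2.09% of divergent and 2.33% of other summits (2.03% and 2.28%). CACAT, a pentamer with no role assumed here, was at 18.6% and 19.0% (20.4% and 18.4%). Neither had 1 direction in all 3 replicates (exact sign-flip p = 0.50 for CAGGTA and 0.75 for CACAT). All 11 motifs were searched on both strands, and a match is a run of letters, not a bound site.

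**Figure D5:**
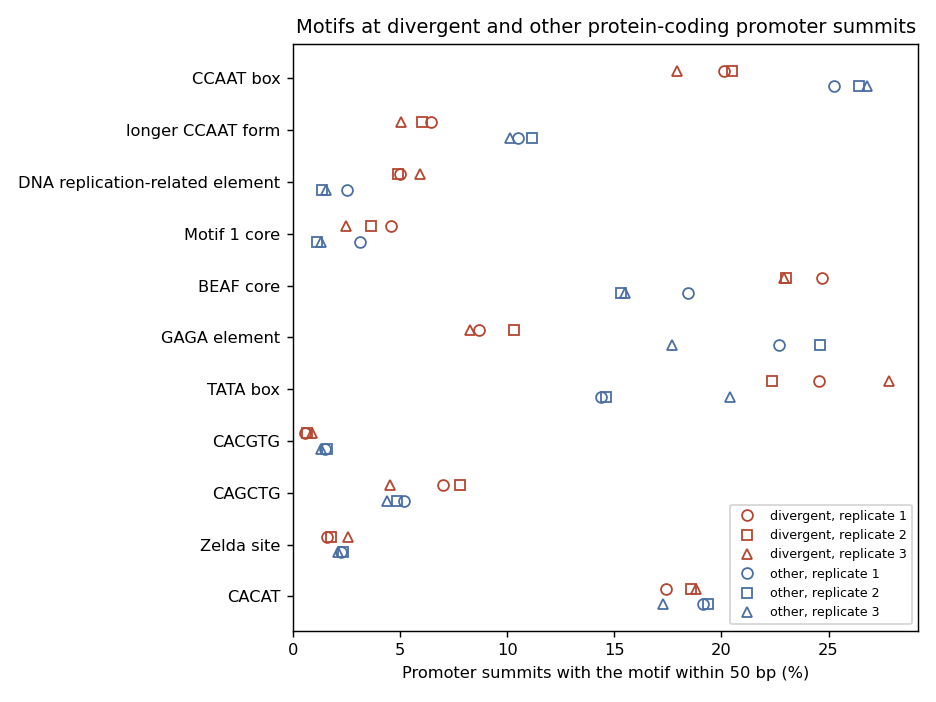
Share of promoter summits with each motif within 50 bp (horizontal axis, percent), in the 3 replicates, for divergent promoters (upper symbols of each row) and other protein-coding promoters (lower symbols). GAGAG and CCAAT are lower at divergent promoters in each replicate, 8.25 to 10.3% against 17.7 to 24.6% for GAGAG, and the DRE, BEAF core and TATAAA are higher.

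Pairs with and without a summit were also compared within 50 bp of the midpoint of the closest start sites, which does not depend on where a summit lies. CCAAT was at 18.8% of the 722 bound midpoints and 16.9% of the 1273 unbound ones. In replicates 1, 2 and 3 it was 17.99, 18.3 and 19.0% at bound midpoints and 17.4, 17.3 and 16.7% at unbound ones (exact sign-flip p = 0.25). The difference was 1.30 percentage points. The longer form was at 3.32% of bound and 5.18% of unbound midpoints.

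The BEAF core was at 21.3% of bound and 30.2% of unbound midpoints, and the Motif 1 core at 2.08% and 4.48%. TATAAA was at 25.8% and 21.1%, and mean GC was 32.1% and 34.4%. Each had 1 direction in all 3 replicates (exact sign-flip p = 0.25). Narrow pairs were less often bound and their midpoint window reaches the start sites, so the comparison was repeated, after seeing the data, in pairs spaced 200 bp or more. There, with 504 bound and 711 unbound pairs, CCAAT was at 18.1% and 17.6%, the BEAF core at 11.9% and 14.5%, TATAAA at 33.9% and 28.0%, and mean GC was 27.0% and 28.7%. The DRE was at 4.85% of bound and 7.23% of unbound midpoints over all pairs, and the direction turned in the wide pairs, with 1.59% and 0.844%. The Motif 1 core was rare in the wide pairs, at 0% and 0.281%. GAGAG was at 7.76% of bound and 7.86% of unbound midpoints over all pairs, and at 7.14% and 5.91% in the wide pairs. Over replicates and all pairs, GAGAG was 0.893 percentage points higher at bound midpoints.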

How the data were processed

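Per the labels, chromatin of 3 biological replicates was sheared by sonication to fragments of 200 to 800 bp, and the assembly is dm6. Per the deposited readme texts, peaks were called by the authors on each replicate and on all 3 together against a control alignment, and an optimal list was derived from these by the irreproducible discovery rate. The threshold of that step, the aligner and the peak caller were not given in the sources used here. Each signal value as deposited is the authors' score per peak, with an unstated relation to depth. Ranking by the deposited −log10 q-value was an alternative only, since 91.2% of optimal peaks share its highest value. The deposited summit offset gave each summit, written counted from 1.

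Genes came from Ensembl release 115 and sequence from RefSeq; 99.9% of 16213 complete start codons read ATG. All annotated start sites counted for membership, and closest start sites for spacing and place. Of 719 members, 6 share their interval with an earlier peak and differ in the summit. Python 3.11.15, numpy 2.4.6, pandas 2.3.3 and scipy 1.17.1 were used, and the steps were tested on simulated data. The members, lists and alternatives were chosen with earlier results of these data known. Named members are the 20 of highest signal found in all 3 replicates, the 2 of highest signal of each list and the 3 of lowest signal. A ribosomal protein pair that this rule names is not reported here. Sequences by that rule were the Chro, crq and PIG-Wb intervals; the PIG-Wb interval is not printed, as its summit lies 554 bp beyond it. The other printed windows were taken by signal from arms other than 2R. The pooled list was not used here.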

Additional observations from a re-analysis of the deposited data

How the results depend on the processing

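Over all alternatives, 19 recomputed values turned round. The differences below kept their direction under every alternative run, but several changed much in size. In percentage points, their lowest and highest values were 8.56 and 30.7 for genes with a summit, -11.7 and -1.18 for the share in the highest 10%, -8.88 and -1.83 for GC, -9.58 and -2.04 for CCAAT, -8.32 and -1.33 for its longer form, 1.32 and 8.62 for the DRE, 0.681 and 4.15 for Motif 1, 1.67 and 16.4 for the BEAF core and -19.9 and -7.69 for GAGAG.

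The number of divergent summits was 216 with pairs up to 200 bp apart, 330 in the upper 50% of the list by signal and 357 with summits found in all 3 replicates. The share between the closest start sites was 61.8% with a promoter window of 1000 bp and 36.6% with pairs up to 200 bp, and the replicate mean was 52.8% with whole replicate lists. The share found in all replicates was 83.3% in the upper 50% of the list, 36.3% with a match within 50 bp, 58.1% within 200 bp, 25.9% with replicate lists cut to 50% of that length and 78.6% with whole lists. With 1 replicate left out it was 55.8 to 65.9%.

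With the −log10 q-value in place of the signal, the log2 ratio of medians was 0 in the optimal list and in the replicate mean. That value is tied for most peaks, so this 0 does not speak on the signal. The log2 ratio of median signals was 0.33 in the replicate mean with whole lists. With pairs up to 200 bp apart, the TATAAA difference was -4.53 percentage points in the optimal list and -3.25 over replicates, and that of CACGTG 0.300 in the optimal list. With motifs within 100 bp, CACGTG stood at 0.440 and 0.133, and at 0.0810 over whole replicate lists. CAGCTG was at -0.12 in the upper 50% of the list. CAGGTA was at 0.123 with outermost start sites and 0.113 without overlapping gene bodies. CACAT was at 0.255 in the optimal list and 0.604 over replicates with pairs up to 1000 bp apart, 0.837 in the upper 50%, 0.620 with summits found in all replicates, 0.191 over replicates with a window of 250 bp, 0.0962 at 50% length and 0.234 with whole lists, and -1.26 to 0.383 with 1 replicate left out. The DRE at midpoints of pairs spaced 200 bp or more, an alternative added after seeing the data, differed by 0.755 percentage points over replicates. The cause of these changes was not tested. Differences were taken within each replicate, and with 1 group there are no groups to pair by replicate number. Depth is unknown, so what it limits cannot be stated.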
